A study of Homo sapiens with 6 samples.

Results

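The clustered protocadherins were described in 6 human neuroblastoma libraries as the genes on chromosome 5 whose symbol begins with PCDHA, PCDHB or PCDHG, followed by a digit, A, B or C. The rule found 54 of the 60651 gene identifiers, of which 53 were protein-coding members, 15 in the alpha, 16 in the beta and 22 in the gamma cluster. The remaining identifier was the antisense RNA *PCDHB1-AS1*, with 1 count in all libraries together, and 6 pseudogenes of the clusters were left out. On GRCh38 the alpha members spanned positions 140786136 to 141012347 of chromosome 5, the beta members 141051374 to 141249365 and the gamma members 141330571 to 141512981.

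Protocadherins are cell surface proteins of the cadherin family that carry calcium-dependent extracellular repeats and bind the same isoform on a neighbouring cell. In neurons each variable exon has its own promoter and each cell uses few of them, which gives cells a surface identity that lets a neuron tell its own branches from those of other neurons. An alpha or gamma transcript joins 1 variable exon, which encodes the extracellular, transmembrane and first cytoplasmic part, to constant exons that encode a cytoplasmic end common to the cluster. Beta genes lack constant exons. The last variable exons of the alpha and gamma clusters encode the C-type members, which are regulated apart from the others. The insulator protein *CTCF* and the cohesin ring bring variable promoters to distant enhancers, and DNA methylation and the protein *SMCHD1* keep unused promoters silent.

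Total RNA, depleted of ribosomal RNA, was sequenced from 3 libraries labelled EtOH (ethanol, the solvent) and 3 libraries labelled Tet (tetracycline). The titles named IMR575, the MYCN-amplified line IMR-5/75, and the label for knockdown read Control for EtOH and Induction for Tet. In the study's methods, tetracycline induces an shRNA against *MYCN* in IMR-5/75 cells kept under zeocin and blasticidin, and a western blot checked the knockdown. The protocol given with the libraries instead described SK-N-SH single clones with the tetracycline repressor and inducible *MYCN*. These were kept under G418 and blasticidin and given tetracycline for 5 days, so the libraries are called here by their labels. *MYCN*, the gene to be induced or lowered, was at 158, 256 and 156 CPM (counts per 1000000, scaled between libraries by TMM) in EtOH replicates 1 to 3 and at 197, 200.1 and 145 CPM in Tet replicates 1 to 3, so the groups overlapped (log2 fold change -0.07 with an SE of 0.23, edgeR adjusted p = 0.958). The library totals ranged from 27933378 to 40498065 counts, and 3 counts corresponded to between 0.0741 and 0.107 CPM. EtOH replicate 2 had the lowest summed level of the alpha, the beta and the gamma cluster. Nothing in the labels tied each library to a culture of its own, so p-values measure only the spread between these libraries. Fewer expressing cells and less RNA per cell cannot be told apart in such bulk samples. Of the markers of adrenergic neuroblasts, 7 of 13 were at 1 CPM or more in all 6 libraries, and the defining enzymes *TH* and *DBH* were at or near 0. Of the 10 mesenchymal or fibroblast markers, 5 were at 1 CPM or more in all libraries. None of the 6 Schwann cell markers and none of the 5 endothelial or blood markers reached that level in all libraries.

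The sequences that mark these promoters were taken from RefSeq (GRCh38.p14), which held a window of 300 bases, 250 before and 50 after the start, for 47 of the 53 members. Many clustered protocadherin promoters carry a short conserved element with the core CGCT. Windows of 22 bases around this core, on the plus strand and with the core in capitals, are shown for members at high and at near-zero levels, so that they can be set beside the values that follow.
*PCDHA4* at chr5:140806983-140807004: gccacatgatgtCGCTctttac
*PCDHA8* at chr5:140841134-140841155: gccacatgatgtCGCTgtctac
*PCDHA10* at chr5:140855845-140855866: gccaccggatgtCGCTgtcgtc
*PCDHB5* at chr5:141135183-141135204: gacgcctggtggCGCTgcaggc
*PCDHB7* at chr5:141172570-141172591: aacgcaaggtggCGCTgctggc
*PCDHB12* at chr5:141208647-141208668: gacgcgtggtggCGCTgcagga
*PCDHB14* at chr5:141223267-141223288: gacacatggtggCGCTacagga
*PCDHGA1* at chr5:141330407-141330428: gactgtgggcgcCGCTgttcac
*PCDHGB4* at chr5:141387621-141387642: gactctgggcgcCGCTgttggc
*PCDHGA10* at chr5:141412935-141412956: gactctgagcgcCGCTgttcac
A window was cut only where a promoter held the word chosen for its cluster. The shown letters were therefore alike within a cluster and unlike between clusters by that choice, and promoters without the word are not shown. The word GATGTCGCT, on either strand, was found in 9 of 13 alpha promoters, in no beta or gamma promoter and in 0.105% of all 35116 promoters in the table. The word GGTGGCGCT was found in 13 of 14 beta promoters, in no alpha or gamma promoter and in 0.501% of all promoters. The word GCGCCGCTG was found in 10 of 20 gamma promoters, in no alpha or beta promoter and in 1.28% of all promoters. The 4-letter core, which lies inside each of these words, was found in 46 of the 47 member promoters and in 70.01% of all promoters, and these words were chosen from the members' own sequences. The promoter window of *PCDHA9*, the alpha member with the second highest count, held no CGCT on either strand. *PCDHB5*, *PCDHB7* and *PCDHB16*, which were near 0 in these libraries, held the beta word as *PCDHB12* and *PCDHB14* did, and a match describes letters and not a bound site.

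Exon sharing decided how counts could be read. Per the file headers, a pair over exons of more than 1 gene gave each of them an equal fraction, and strand was ignored. All 15 alpha members shared constant exons of 59, 89 and 2721 bases at chr5:140978949-140979007, chr5:140982475-140982563 and chr5:141009627-141012347. All 22 gamma members shared constant exons of 59, 89 and 2029 bases at chr5:141494807-141494865, chr5:141505393-141505481 and chr5:141510947-141512975, and no exon was common to the beta members. Bases inside another listed gene made up between 21.3% and 99.9% of the exon length of alpha members (median 49.5%), between 27.5% and 64.4% for gamma (median 43.9%) and between 0% and 43.9% for beta (median 5.32%).

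Some variable exons were shared as well. The variable part of *PCDHA1* lay within an unnamed gene model, ENSG00000279726, over 2719 of its 2726 bases, so its count was made almost wholly of divided pairs. *PCDHGB4* and *PCDHGA8* overlapped over 2266 bases beyond the constant exons, and *PCDHB2* shared 1797 bases with *PCDHB1-AS1*. *PCDHA10*, the longest member with 15664 exon bases, overlapped *PCDHA11*, *PCDHA12*, the pseudogene *PCDHA14* and ENSG00000278946. *PCDHB4*, *PCDHB12* and *PCDHB13* shared no base with another gene.

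The alpha cluster was the most abundant and was higher in the libraries labelled Tet. The counts of its 15 members summed to 92.6, 72.0 and 93.9 CPM in EtOH replicates 1 to 3 and to 156, 159 and 149 CPM in Tet replicates 1 to 3, so that every Tet library lay above every EtOH library. The mean was 86.2 ± 12.3 CPM with EtOH and 155 ± 4.93 CPM with Tet (SD, n = 3 each), a ratio of 1.80, which was 1.66 without EtOH replicate 2. The beta cluster summed to 22.003, 14.4 and 24.3 CPM with EtOH and to 35.1, 37.1 and 35.5 CPM with Tet, again without overlap. Its mean was 20.2 ± 5.14 CPM with EtOH and 35.9 ± 1.03 CPM with Tet, a ratio of 1.77, which was 1.55 without EtOH replicate 2. The gamma cluster, with the most members, was the lowest, and its groups overlapped. It summed to 16.7, 8.44 and 16.02 CPM with EtOH and to 16.02, 14.5 and 16.4 CPM with Tet. The means were 13.7 ± 4.59 CPM and 15.7 ± 0.9998 CPM, a ratio of 1.14, and without EtOH replicate 2 this ratio turned to 0.957. Ratios of these sums were described and not tested.

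**Figure D1:**
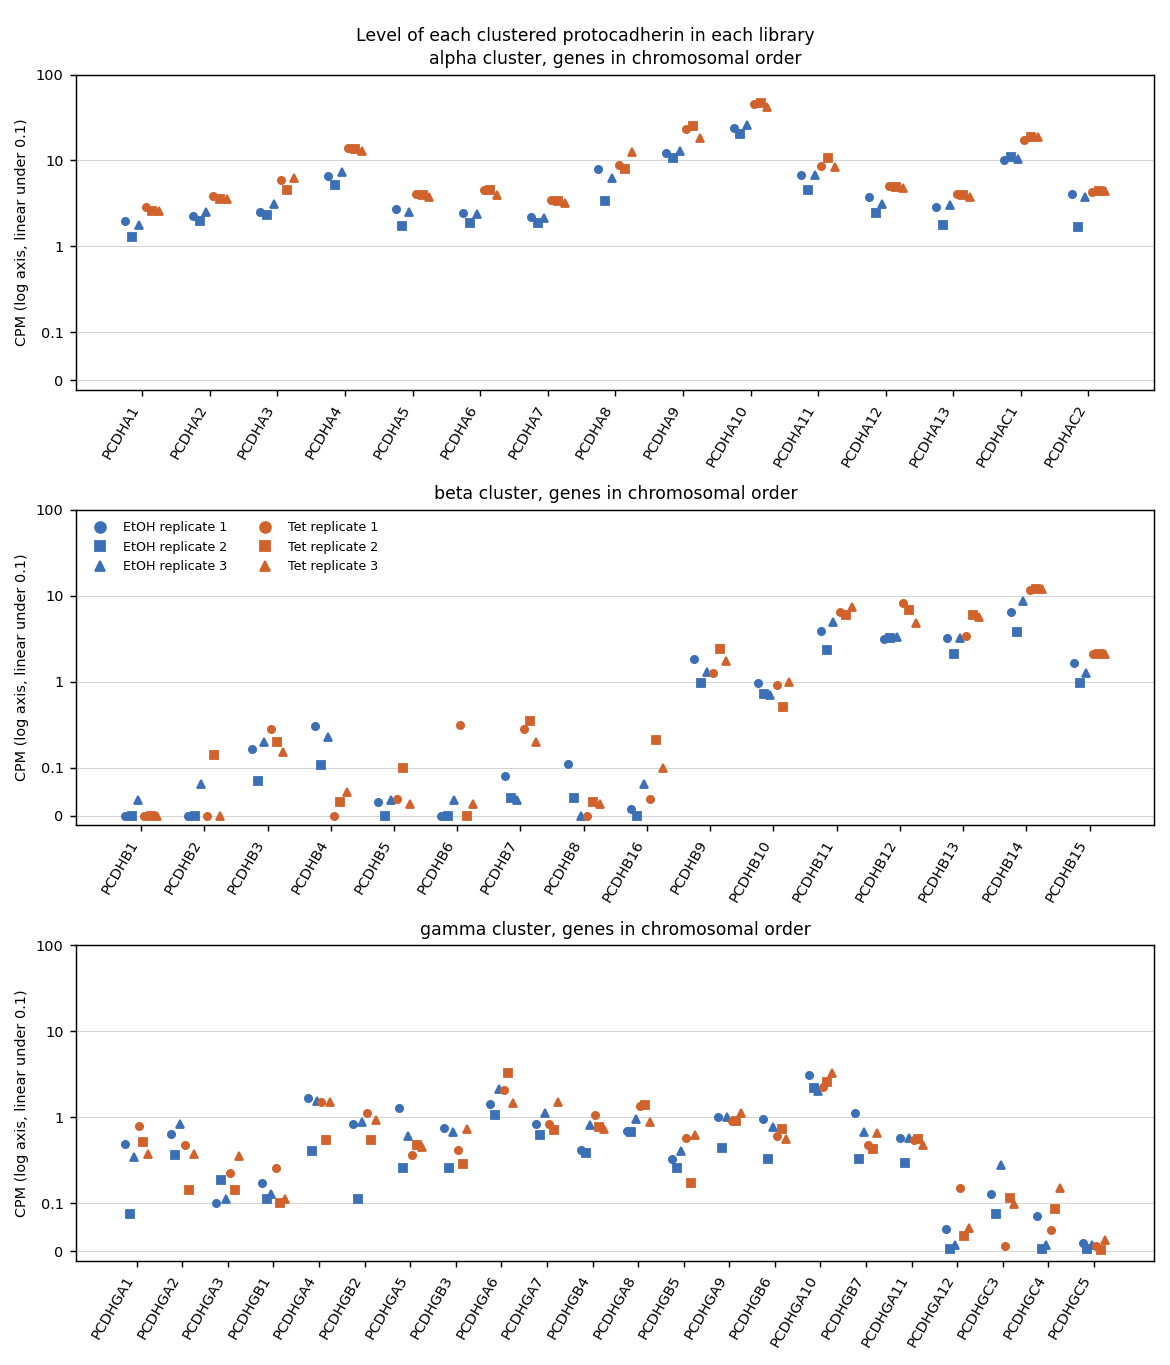
Level of each of the 53 members in each of the 6 libraries, in CPM on a log axis that is linear under 0.1, with genes in chromosomal order and 1 panel per cluster. All 15 alpha members were at 1 CPM or more in every library, with the divided pairs of the constant exons counted in. The first 9 beta members, which have no constant exons, lay near 0. Only 2 gamma members were at 1 CPM or more in every library.

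No member passed the test across all genes. Of the 53 members, 38 had enough counts to be tested, namely 15 alpha, 7 beta and 16 gamma, and 0 had an edgeR adjusted p under 0.05, where 0.214% of the 22443 genes tested did. At an unadjusted p under 0.05, 12 alpha, 4 beta and 0 gamma members were higher with Tet and none was lower, and 5.73% of all genes tested were higher at that level. All 3 Tet libraries lay above all 3 EtOH libraries for 14 alpha, 5 tested beta and 0 gamma members, as for 9.21% of all genes tested. The alpha members in these counts are not separate observations, because they share the divided pairs of the constant exons. The median log2 fold change was 0.75 over the alpha, 0.80 over the tested beta and 0.18 over the tested gamma members, beside -0.01 over all genes tested, and the members that passed the filter on low counts are not all members. Without EtOH replicate 2 these medians were 0.61, 0.60 and -0.02. In other fits some members passed, while more of all genes passed as well. With DESeq2, 6 members passed, beside 2.02% of the genes given an adjusted p. With the replicate number as a block, 5 members passed, beside 3.3% of all genes tested. Without EtOH replicate 2 it was 3 members beside 2.92%, and with no filter 1 member beside 0.586%.

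**Figure D2:**
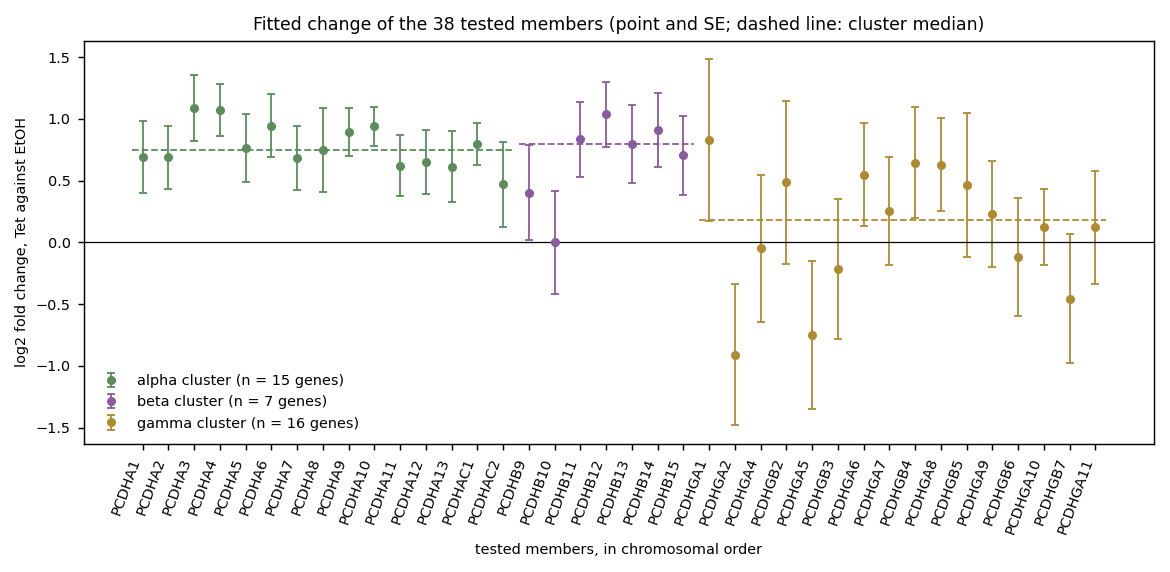
Fitted log2 fold change (Tet against EtOH, edgeR) of the 38 tested members in chromosomal order, with SE bars, and a dashed line at each cluster's median (0.75, 0.80 and 0.18). All 15 alpha and all 7 tested beta values lie above 0, with *PCDHB10* at 0.00, while gamma values lie on both sides. The alpha values share the divided pairs of the constant exons.

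*PCDHA10* had the highest count of all members. It was at 23.9, 20.4 and 25.7 CPM in EtOH replicates 1 to 3 and at 45.8, 46.7 and 42.0 CPM in the Tet replicates, with all Tet libraries above all EtOH libraries. The fitted log2 fold change of 0.94 had an SE of 0.16 (edgeR adjusted p = 0.0690), and the adjusted p was the lowest of any member. It passed with DESeq2 (adjusted p = 0.00163), with the block, without EtOH replicate 2 and with no filter. *PCDHA9*, its neighbour upstream, was at 12.4, 10.6 and 13.1 CPM with EtOH and 23.3, 25.2 and 18.4 CPM with Tet without overlap (0.89, SE 0.19, edgeR adjusted p = 0.134), and passed with DESeq2 (adjusted p = 0.0211) and with the block.

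*PCDHA3* and *PCDHA4* had the highest fitted values of the alpha cluster on the deposited counts. *PCDHA4* was at 6.66, 5.25 and 7.33 CPM with EtOH and 14.1, 13.5 and 12.96 CPM with Tet (1.07, SE 0.21, edgeR adjusted p = 0.0981). *PCDHA3* was at 2.49, 2.29 and 3.10 CPM with EtOH and 5.92, 4.57 and 6.31 CPM with Tet (1.09, SE 0.26, edgeR adjusted p = 0.176). For each, the lowest Tet library was above the highest EtOH library. Both passed with DESeq2 and with the block, and *PCDHA4* also without EtOH replicate 2. With the lowest member's count taken from every member, *PCDHA6* (1.502) lay between *PCDHA3* (1.61) and *PCDHA4* (1.19), and none of these passed. That count is an upper bound on the part common to the cluster, so more than this part may be removed.

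The C-type members of the alpha cluster were unlike in their spread. *PCDHAC1* was at 10.04, 10.8 and 10.51 CPM with EtOH and 17.2, 19.0 and 18.5 CPM with Tet, with little spread within either group (0.80, SE 0.17, edgeR adjusted p = 0.127). It passed with DESeq2 (adjusted p = 0.0214), with the block (0.0273) and without EtOH replicate 2 (edgeR, 0.0368). *PCDHAC2* was at 4.04, 1.68 and 3.73 CPM with EtOH and 4.33, 4.44 and 4.41 CPM with Tet. The Tet libraries of *PCDHAC2* lay above the EtOH libraries by little except for EtOH replicate 2, and its value was the smallest of the cluster (0.47, SE 0.34, edgeR adjusted p = 0.714). The difference between the C-type members was not tested. The other alpha members ranged from a log2 fold change of 0.61 (*PCDHA13*) to 0.95 (*PCDHA6*), and *PCDHA8* was the only alpha member whose groups overlapped.

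Alpha members are not separate observations, because the pairs on the constant exons entered all 15 counts alike. The lowest member, *PCDHA1*, sets an upper bound on this common part. Its count times 15 gave at most 1056, 534 and 800 pairs in the EtOH and 1224, 1391 and 1546 pairs in the Tet replicates, or 24.7% to 31.8% of the cluster's counts. With the count of its overlapping gene taken off, the lower bound was 11.4% to 21.0%. Alpha values after subtraction, member-specific shares included, use the upper bound. When the lowest member's count was taken from every member, 14 of 15 alpha members stayed higher with Tet and *PCDHA1* was at 0 by construction. The median log2 fold change was then 0.80, 7 members had an unadjusted edgeR p under 0.05 and 0 an adjusted p under 0.05. What was left of each count, per 1000 bases of variable exon, was higher in all Tet than in all EtOH libraries for 11 members. Over all genes tested, the CPM of 9.21% was. The values left are not separate observations either, because the same count was taken from every member of a library.

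On that scale of variable-exon CPM per 1000 bases, *PCDHAC1* and not *PCDHA10* had the highest level. *PCDHAC1* was at 2.12 ± 0.179 with EtOH and 3.74 ± 0.266 with Tet, and *PCDHA10* at 1.69 ± 0.186 and 3.29 ± 0.190 (SD, n = 3 each). *PCDHA9* followed at 1.499 ± 0.141 and 2.84 ± 0.499, then *PCDHA8* at 1.597 ± 0.752 and 2.73 ± 0.996, whose spread covered that of its neighbours in the order. The lowest levels other than *PCDHA1* were those of *PCDHA7*, at 0.138 ± 0.0562 and 0.219 ± 0.0337, and of *PCDHA5* and *PCDHA2*. *PCDHA8* to *PCDHA11* and *PCDHAC1* held the 5 highest levels. The 5 lowest were those of *PCDHA2*, *PCDHA5* to *PCDHA7* and *PCDHA1*, the last at 0 by construction.

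The beta cluster was split along the chromosome. The first 9 genes in order, *PCDHB1* to *PCDHB8* and *PCDHB16*, had between 1 and 35 counts in all 6 libraries together and none was tested. The last 7, *PCDHB9* to *PCDHB15*, had between 160.5 and 1849 counts and all were tested. *PCDHB7* had 33.5 counts and lay higher in all Tet libraries, at 0.0837, 0.0361 and 0.0331 CPM with EtOH and 0.284, 0.353 and 0.201 CPM with Tet. *PCDHB4* had 24 counts and lay lower in all Tet libraries, at 0.307, 0.108 and 0.231 CPM with EtOH and 0, 0.0282 and 0.0503 CPM with Tet. Both were named after their values were seen, and no library held more than 12.5 counts of either.

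*PCDHB14* was the most abundant beta gene per length, at 6.53, 3.81 and 8.83 CPM with EtOH and 11.8, 12.1 and 12.1 CPM with Tet. The Tet libraries lay close together above 3 EtOH libraries that were spread (0.91, SE 0.30, edgeR adjusted p = 0.318). *PCDHB12*, which shares no exon base with another gene, was at 3.153, 3.25 and 3.31 CPM with EtOH and 8.19, 6.88 and 4.88 CPM with Tet. Here the spread lay among the Tet libraries, none of which overlapped EtOH (1.04, SE 0.27, edgeR adjusted p = 0.196, and 0.0418 with DESeq2). *PCDHB11* was at 3.93, 2.34 and 4.91 CPM with EtOH and 6.49, 6.04 and 7.42 CPM with Tet, also without overlap (0.83, SE 0.30, edgeR adjusted p = 0.377). *PCDHB9* and *PCDHB10* were the genes among the last 7 whose groups overlapped, and *PCDHB10* was at 0.976, 0.721 and 0.711 CPM with EtOH and 0.922, 0.508 and 1.01 CPM with Tet, with a log2 fold change of 0.00 (SE 0.42). The beta members that share no exon base gave a summed ratio of 1.84.

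The gamma cluster held counts on many members at low levels. Per library, 17 to 20 of the 22 members had 3 counts or more. *PCDHGA10*, the highest, was at 3.14, 2.21 and 2.03 CPM with EtOH and 2.24, 2.57 and 3.25 CPM with Tet, and its groups overlapped (0.13, SE 0.31, edgeR adjusted p = 0.942). *PCDHGA4* was at 1.66, 0.402 and 1.57 CPM with EtOH and 1.498, 0.538 and 1.51 CPM with Tet, and in each group replicate 2 was the lowest (-0.05, SE 0.60, edgeR adjusted p = 0.991). *PCDHGA6* was at 1.44, 1.05 and 2.16 CPM with EtOH and 2.07, 3.30 and 1.46 CPM with Tet, with its highest value in Tet replicate 2. These 3 members had the highest gamma CPM per 1000 exon bases with the constant exons counted in the length, and their groups overlapped. Per 1000 bases of variable exon, *PCDHGA9* (mean 0.344 CPM over all libraries) lay above *PCDHGA6* (0.331 CPM).

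The extremes of the gamma cluster rested on few counts. *PCDHGA1* had the highest fitted value, 0.83 (SE 0.65, edgeR adjusted p = 0.734), with 85.5 counts in all, and *PCDHGB4* had 0.65 (SE 0.45). *PCDHGA2* had the lowest, -0.91 (SE 0.57, edgeR adjusted p = 0.649), and *PCDHGA5* had -0.75 (SE 0.60). Each lay within 2 SE of 0, and all 4 had overlapping groups. *PCDHGA2* was the only gamma member whose share of the cluster did not overlap, with 4.45 ± 0.757% of the member-specific counts with EtOH and 2.03 ± 0.983% with Tet. The gamma C-type members *PCDHGC3*, *PCDHGC4* and *PCDHGC5* had 23.5, 13.5 and 2.5 counts in all and were not tested, nor were *PCDHGA3*, *PCDHGB1* and *PCDHGA12*.

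Counts on the gamma constant exons were far below those on its variable exons. The lowest gamma count times 22 gave an upper bound of 14, 3 and 9 pairs on the constant exons in EtOH replicates 1 to 3 and of 6, 2 and 21 pairs in the Tet replicates. In every library all 22 gamma counts differed from the lowest by multiples of 0.5, within 0.02, as counts with 1 common divided part would. What was left summed to 586, 231 and 476 counts with EtOH and 446, 514 and 633 counts with Tet. Per 1000 bases, the constant exons held at most 3.147 ± 0.776% of the summed variable exons with EtOH and 2.77 ± 2.36% with Tet (SD, n = 3 each).

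The alpha cluster was unlike gamma in this measure. There the same ratio was at most 80.1 ± 7.20% with EtOH and 73.3 ± 7.54% with Tet, and at least 43.1 ± 6.34% and 29.7 ± 6.91% when *PCDHA1* was freed of the part that its overlapping gene could hold. The highest gamma value of any library, 5.35%, lay below the lowest lower bound for alpha, 24.4%. Words of 32 bases from both sets of constant exons each occurred once in the GRCh38 chromosomes and scaffolds, 2776 of 2776 for alpha and 2084 of 2084 for gamma. Of the other exons, 84.6% of alpha, 75.2% of beta and 89.0% of gamma words occurred once, and pairs from the remaining words could be lost among unique alignments. The gamma pseudogenes *PCDHGB8P* and *PCDHGB9P* had means of 0.193 and 0.127 CPM per 1000 bases, within the range of the gamma members. Sense and antisense reads could not be told apart in these counts.

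**Figure D3:**
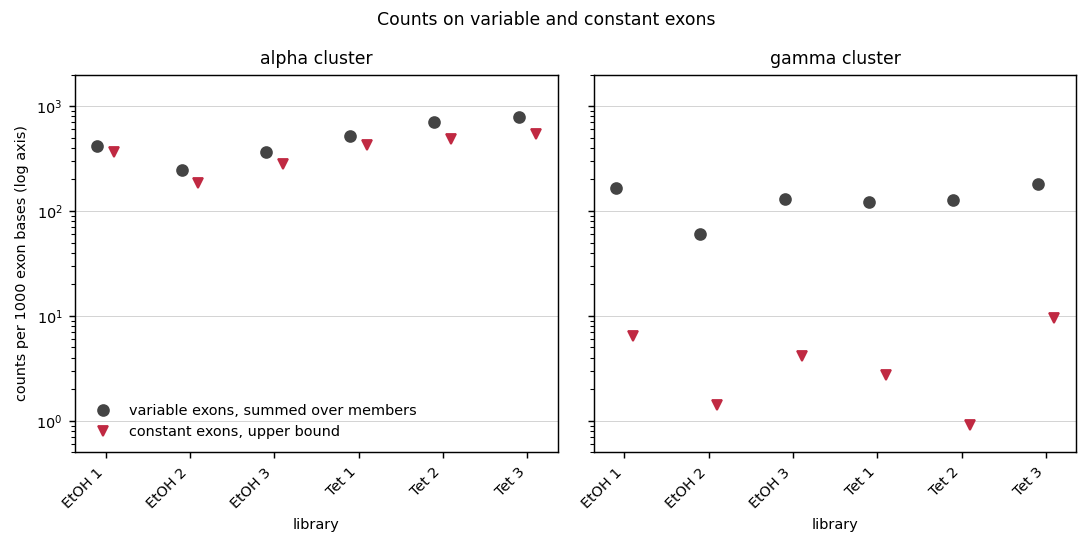
Counts per 1000 exon bases in each library on a log axis, with circles for the variable exons summed over members and triangles for the upper bound on the constant exons. In alpha this upper bound lies close to the variable exons in all 6 libraries, while the lower bound, not drawn, was 24.4% to 47.1% of them. In gamma the constant exons hold at most 5.35% of the variable density.

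The highest share of each cluster overlapped between the groups. *PCDHA10* held 35.5 ± 0.765% of the member-specific alpha counts with EtOH and 36.9 ± 1.19% with Tet. Only *PCDHA4*, from 7.74 ± 0.448% to 9.47 ± 0.415%, and *PCDHA6*, from 0.960 ± 0.186% to 1.44 ± 0.184%, had alpha shares that did not overlap between the groups. As shares of the summed CPM, common part included, *PCDHA4* was again higher with Tet, *PCDHA6* overlapped, and *PCDHA7* and *PCDHA12* lay lower in all Tet libraries. *PCDHB14* held 30.8 ± 5.11% of the beta counts with EtOH and 33.4 ± 0.683% with Tet, while *PCDHB10* held 4.12 ± 1.07% and 2.28 ± 0.792% without overlap. The shares of the near-absent *PCDHB4* (1.03 ± 0.330% and 0.0726 ± 0.0709%) and *PCDHB7* (0.255 ± 0.122% and 0.775 ± 0.194%) did not overlap either. Member-specific shares did not overlap for 2 of 15 alpha, 3 of 16 beta and 1 of 22 gamma members. Over all 22443 genes tested, the CPM of 2068 lay above and of 1860 below in all Tet libraries. These few shares were therefore not read as a result. *PCDHGA10* held 19.5 ± 6.80% and 17.4 ± 3.07% of the gamma counts. In a library, the 3 members with the highest shares together held 64.1% to 72.2% of the member-specific alpha counts. The same measure was 61.9% to 75.3% for beta and 36.4% to 44.2% for gamma, so on this scale gamma counts were spread over more members. The alpha shares depend on the upper bound taken off. With the common part included, *PCDHA10* held 25.9% to 29.4% of the summed alpha CPM.

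**Figure D4:**
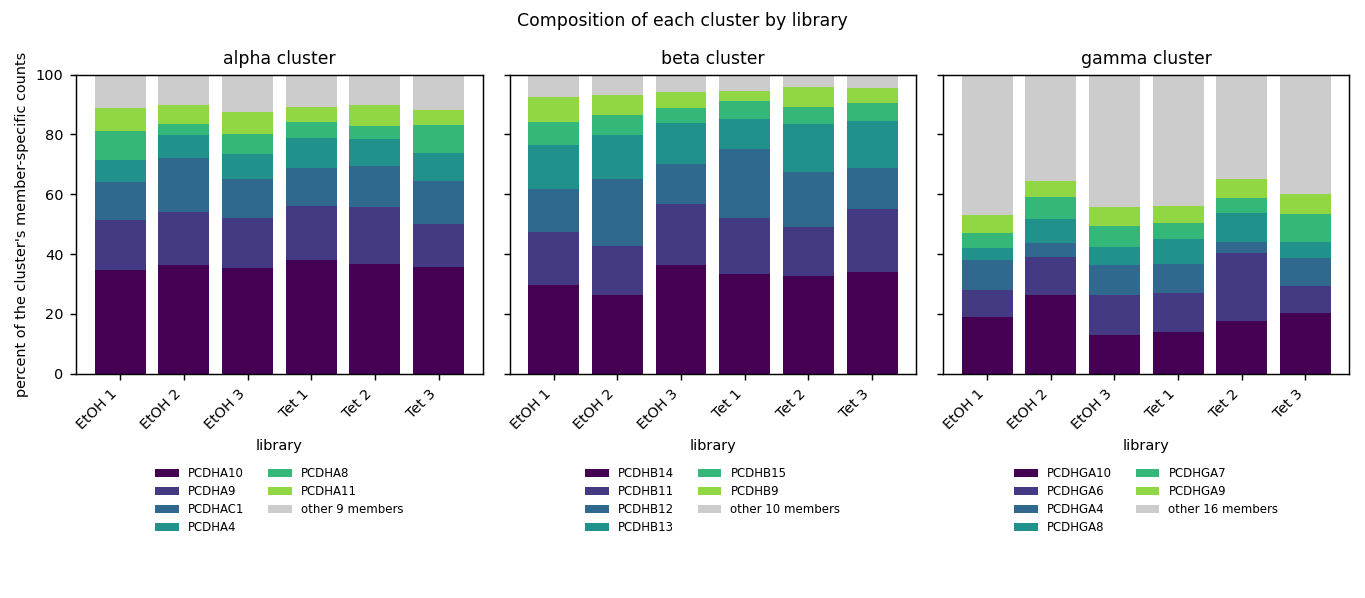
Percent of each cluster's member-specific counts held by its 6 leading members and by the others, as stacked bars for each of the 6 libraries. *PCDHA10* held 34.8% to 38.1% of the member-specific alpha counts in every library. On this scale the gamma counts were divided among more members than the alpha and beta counts.

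Of 11 *CTCF* and cohesin genes, all tested, 0 passed the threshold in edgeR, 0 had an unadjusted p under 0.05, and the median log2 fold change was 0.01. *CTCF*, which binds the variable promoters, was at 52.4, 54.5 and 49.5 CPM with EtOH and 47.3, 67.6 and 50.7 CPM with Tet (0.08, SE 0.18, edgeR adjusted p = 0.931). The cohesin loader subunit *MAU2* had the highest value of the list (0.31) and the cohesin subunit *RAD21* the lowest (-0.22).

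Of 16 genes of silencing, all tested, 0 passed, 4 were higher and 1 lower with Tet at an unadjusted edgeR p under 0.05, and the median was 0.21. Over all 22443 genes tested, 1286 were higher and 1090 lower at that level. *SMCHD1*, which keeps the clusters silent, was at 539, 839 and 610.1 CPM with EtOH and 587, 705 and 619 CPM with Tet (-0.06, SE 0.19, edgeR adjusted p = 0.962). *DNMT3B*, a DNA methyltransferase that acts on new sites, was at 6.78, 11.6 and 6.35 CPM with EtOH and 4.25, 5.30 and 3.45 CPM with Tet. Its groups did not overlap and it was the lowest of the list (-0.93, SE 0.31, edgeR adjusted p = 0.325). The histone methyltransferase *EHMT2* was the highest (1.66, SE 0.66), with 1 Tet library, replicate 3, far above the others at 6.64 CPM.

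Among 21 partners of the cytoplasmic part, 20 were tested and 0 passed, with 1 at an unadjusted edgeR p under 0.05 and a median of -0.01. The tyrosine kinases *SRC* (0.87) and *RET* (-0.38) were the highest and the lowest. Of 7 genes of shedding and cleavage, *ADAM10* and the gamma-secretase complex, 0 passed, 1 had an unadjusted p under 0.05 and the median was 0.00. The gamma-secretase subunits *APH1B* (0.55) and *APH1A* (-0.33) were the highest and the lowest.

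Related adhesion genes outside the clusters lay on both sides of 0. Of 12 non-clustered protocadherins, 10 were tested, 3 were higher and 7 lower with Tet, 0 passed, and the median was -0.57. *PCDH9* was at 34.3, 35.2 and 37.1 CPM with EtOH and 66.8, 55.3 and 57.7 CPM with Tet (0.75, SE 0.15, edgeR adjusted p = 0.103). *PCDH18* was at 27.7, 37.6 and 25.5 CPM with EtOH and 13.9, 14.9 and 12.7 CPM with Tet (-1.13, SE 0.20, edgeR adjusted p = 0.0776). The groups did not overlap for either. Of 16 classical cadherins and catenins, 13 were tested, 11 were higher and 2 lower, 0 passed, 6 were higher at an unadjusted edgeR p under 0.05, and the median was 0.41. Over all genes tested, 49.3% were higher with Tet, and 5.73% were higher at that level. *CDH6* was at 1.56, 10.6 and 2.03 CPM with EtOH and 20.7, 40.7 and 21.6 CPM with Tet (2.55, SE 0.69, edgeR adjusted p = 0.219) and *CDH8* was the lowest (-0.99).

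Of 42 other genes of the locus, from *HARS2* to *DIAPH1*, 22 were tested, 17 were higher and 5 lower with Tet, 0 passed and the median was 0.54. Of all genes tested, 49.3% were higher. The list of the locus holds gene models and pseudogenes that overlap the members and share their divided pairs. *SLC25A2*, a mitochondrial transporter gene between the beta and gamma clusters, was the highest (1.41, SE 0.55) on 82 counts, and ENSG00000279983 was the lowest (-0.46, SE 0.78).

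**Figure D5:**
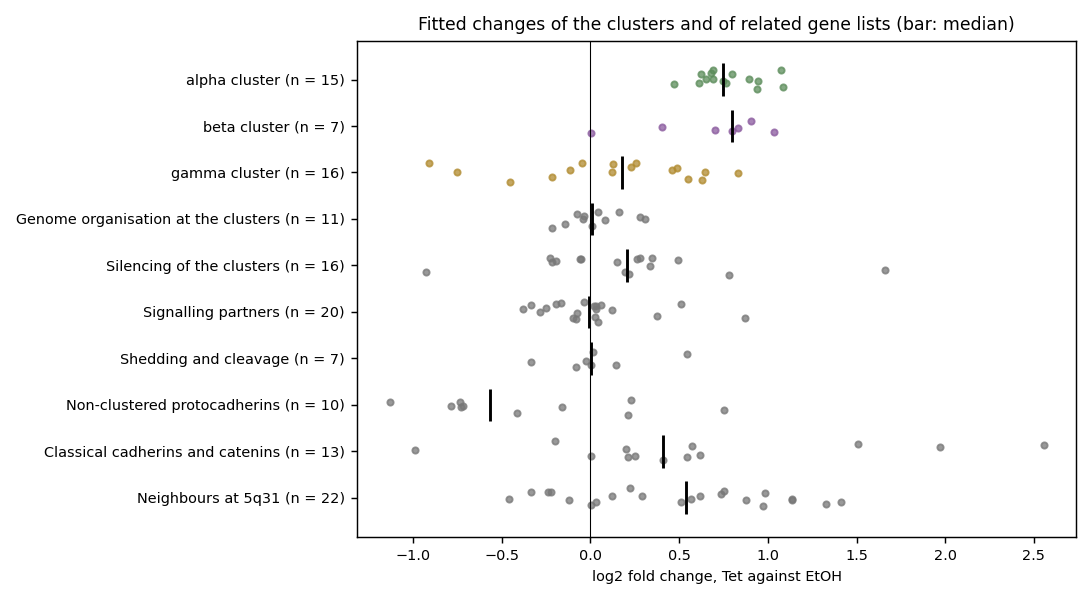
Fitted log2 fold change (Tet against EtOH) of the tested genes of each cluster and of related lists, 1 point per gene with a bar at the median. The alpha points lie between 0.47 and 1.09, gamma and most other lists lie on both sides of 0, and non-clustered protocadherins have a median of -0.57.

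The adrenergic neuroblast markers, like the alpha and beta sums, did not overlap between the groups when summed. Their level over 13 genes ranged from 572 to 700.0 CPM in the EtOH libraries and from 723 to 872 CPM in the Tet libraries. With Tet 8 of 10 tested were higher, beside 49.3% of all genes tested. *DDC*, an enzyme of catecholamine synthesis, was the only marker to pass in edgeR, from 0.167, 0.361 and 0.198 CPM with EtOH to 3.23, 2.93 and 2.37 CPM with Tet (3.55, SE 0.41, adjusted p = 0.0290). That call was lost in 5 of 6 edgeR fits that left out 1 library, each except that without EtOH replicate 2, with adjusted p from 0.108 to 0.221. The 10 mesenchymal markers summed to between 124 and 223 CPM with EtOH and between 117 and 167 CPM with Tet. The part of this difference in the protocadherin values was not tested.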

How the data were processed

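The values deposited were estimated counts per gene, not scaled for depth or length, in 1 table per library. Per the file headers, the authors counted uniquely aligned, trimmed read pairs per gene with featureCounts 1.6.4 in exons, giving overlapping genes equal fractions of a pair and ignoring strand. The labels named STAR 2.7.1a and featureCounts 1.5.1, and the study's methods gave other options, which use strand. Coordinates are GRCh38, counted from 1. Of 60651 identifiers, 60481 matched a symbol. The 92 spike-in rows, whose largest count was 0, were left out. Counts were rounded, filtered (filterByExpr), scaled by TMM and tested over all genes with edgeR 4.0.16 (R 4.3.3), quasi-likelihood with robust prior, Benjamini-Hochberg adjustment and threshold 0.05, two-sided. SE is the fold change over the root of F. DESeq2 1.42.0, limma 3.58.1 (voom) and other settings were alternatives. The script was tested on simulated counts. Words of 32 bases were counted on both strands of GRCh38. The floor of 3 counts covers counting error only, while SD and SE include the spread between libraries.

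Members, gene lists and promoter words were chosen with earlier results of these data known. Named genes are the C-type members, in each cluster the 3 highest per length and the 2 highest and, where below 0, the 2 lowest by fold change, untested members by total count, in each list the highest and lowest and any called gene, and MYCN, CTCF and SMCHD1.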

Additional observations from a re-analysis of the deposited data

How the results depend on the processing

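The median of the alpha and of the beta cluster stayed above 0 in every alternative run, and the gamma median (0.18) and summed ratio (1.14) turned to -0.024 and 0.957 without EtOH replicate 2, the lowest of -0.024 to 0.30 and of 0.957 to 1.28 when 1 library was left out. Members called, 0 in edgeR, were 6 with DESeq2, 5 with the replicate block and 1 with no filter, and 0 to 3 when 1 library was left out, with 3 without EtOH replicate 2. Genes called over the whole table, 48 in edgeR, were 485 with DESeq2, 740 with the replicate block and 237 with no filter, and 0 to 700 when 1 library was left out, with 700 without EtOH replicate 2. Genes called in the partner and regulator lists, 0 in edgeR, were 2 with DESeq2, 5 with the replicate block and 1 with no filter, and 0 to 6 when 1 library was left out, with 6 without EtOH replicate 2. With the median of members in place of their sum, the ratio was 1.56 for alpha, 1.40 for beta and 1.02 for gamma, and the beta groups, apart in their sum, then overlapped. The fit without a robust prior, chosen after seeing the data, called 53 genes and 0 members.

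Deviations of same-numbered libraries had correlations of 0.0603, 0.510 and 0.219. The first is under 0.1, and EtOH replicate 1 correlated best with Tet replicate 3 (0.379), so the numbers were not taken to pair the libraries. Each of these was above 0, and that of replicate 2 (0.510) was the highest between any EtOH and any Tet library. A pairing was thus not excluded, and the fit with the replicate block stands beside the main fit for that reason.

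Of the values of named members under the alternatives, 249 kept their direction and side of the threshold, 15 passed it and 8 changed sign, and of those of other named genes 285 kept both, 10 passed, 5 (all DDC) no longer passed and 6 changed sign. Genes that changed sign had an adjusted p under 0.05 in no fit. The log2 fold change of PCDHGA4 was 0.012 with limma-voom and 0.036 with the replicate block. When 1 library was left out, values ran from -0.031 to 0.33 for PCDHGA10, from -0.45 to 0.31 for PCDHGA4, from -1.14 to 0.0014 for PCDHGA5, from -0.66 to 0.069 for APH1A, from -0.97 to 0.045 for ENSG00000279983, from -0.22 to 0.21 for MYCN, from -0.089 to 0.18 for CTCF and from -0.21 to 0.16 for SMCHD1. The causes were not tested. Depth limits the 15 untested members, which had at most 37.5 counts in all.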
